A study of Mus musculus with 32 samples.

Results

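The subunits of the receptors for glutamate, GABA and glycine were taken from the exon count table by their gene symbols, which matched 50 of the 24411 genes. They comprised 4 AMPA, 5 kainate, 7 NMDA, 2 delta and 8 metabotropic glutamate receptor genes, 19 GABA-A and 5 glycine receptor genes. No measured value entered the choice. The 32 libraries came from the brains of 4 mice of each of 2 lines on a C57BL/6 background, Cx3cr1-CreER and Sall1-CreER, in which a tamoxifen-inducible Cre recombinase is driven from the locus in the line's name. All mice, those behind the control precipitates included, carried the RiboTag allele RPL22-HA, which adds a haemagglutinin (HA) tag to a ribosomal protein in cells where Cre has acted, and all were given tamoxifen orally at an age of 4 to 6 weeks (4 gavages of 5 mg, on alternate days). Each brain was divided into 4 samples, which gave 8 groups of 4 libraries: sorted microglia (Sort), anti-HA precipitates of sorted microglia (SortIP), anti-HA precipitates of whole brain homogenate (HA), and precipitates of homogenate with an IgG1 isotype control (IgG). An IgG precipitate holds RNA of the homogenate that stays on the beads without the tag, and served as the background against which HA was read. For the 8 sorted Cx3cr1 libraries, title and description give Sort and SortIP the opposite way round, and they are called here by their titles. Values of single libraries are listed by mouse, in the order 1, 2, 3 and 4 for the Cx3cr1 line and 17, 21, 7 and 9 for the Sall1 line.

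Ionotropic glutamate receptors are cation channels of tetrameric subunits that carry fast excitation in the brain, GABA-A and glycine receptors are pentameric chloride channels that carry fast inhibition, and the metabotropic glutamate receptors act through G proteins. Most of these genes are known for their expression in neurons. Astrocytes and oligodendrocyte precursors are known to express some of them, while microglia, the brain's resident macrophages, are not a main site of their expression.

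The sorted and HA libraries differed in cell type markers before any receptor was considered. The summed level of 12 microglia markers was 74461 ± 6771 CPM in Cx3cr1 HA (counts per 1000000 gene counts, mean ± SD, n = 4 mice, as for all means below). It was 5063 ± 547 CPM in Sall1 HA. Among the sorted groups it was 75836.5 ± 3539 CPM in the libraries titled Cx3cr1 Sort and 76636 ± 3049 CPM in Sall1 SortIP. It was 58225.5 ± 3007 CPM in those titled Cx3cr1 SortIP and 58196 ± 2636 CPM in Sall1 Sort. Named by description instead of title, sorted groups of the same name would be alike in both lines. Which naming is right was not tested. The 12 neuron markers summed to 10070 ± 1219 CPM in Cx3cr1 IgG, 1434 ± 370 CPM in Cx3cr1 HA, 9579 ± 741 CPM in Sall1 IgG and 1900 ± 187 CPM in Sall1 HA, and averaged from 102 to 268 CPM in the sorted groups. None of the 12 neuron markers was at 0 in any group. The 12 astrocyte markers summed to 3216 ± 77.2 CPM in Sall1 IgG and 9240 ± 1046 CPM in Sall1 HA, against 3328 ± 434 CPM in Cx3cr1 IgG and 750 ± 79.0 CPM in Cx3cr1 HA. In such bulk samples fewer cells of a type and less RNA per cell cannot be told apart. Depth differed, with 286418 to 574671 gene counts in a Cx3cr1 HA library, 1894943 to 3027342 in a Sall1 HA library and 704183 to 4047465 in an IgG library of either line. A gene without a count could therefore be bounded less tightly in Cx3cr1 HA, where 3 counts in the 4 libraries equal 1.85 CPM, than in Sall1 HA, where they equal 0.31 CPM.

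One control library stood apart in the receptor genes. Gria2, an AMPA receptor subunit, measured 321, 108, 538 and 478 CPM in Cx3cr1 IgG replicates 1 to 4. Gabrb2, a beta subunit of synaptic GABA-A receptors, measured 154, 19.8, 218 and 214 CPM in the same libraries. Grm5, a metabotropic glutamate receptor, measured 70.4, 11.7, 116 and 110 CPM. Replicate 2 was thus far below the other 3 libraries in each of these genes. Of 35 members counted well enough in IgG, 16 lay below 0.5 times the mean of the other 3 libraries there, against 0 or 1 in the other Cx3cr1 IgG libraries. The deviation followed the base composition of the transcript. Of the 16 members with a transcript GC content below 45%, 13 were below 0.5 times that mean, with a median log2 ratio of -2.24, against 3 of 19 members at or above 45%, with a median of -0.026. The limit of 45% was chosen after the values had been seen. Across the 35 members the log2 ratio and GC content had a Spearman rho of 0.84, and across 7012 genes of all kinds 0.64. These genes share 1 library, so the coefficients describe that library only. Sall1 IgG replicate 9 had a weaker deviation of the same kind, with 10 of 35 members below 0.5 times the mean and a rho of 0.50. Grin1, the obligatory NMDA receptor subunit, had a GC content of 59.4% and measured 560, 725, 747 and 826 CPM in Cx3cr1 IgG, so that replicate 2 was within the others.

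**Figure D1:**
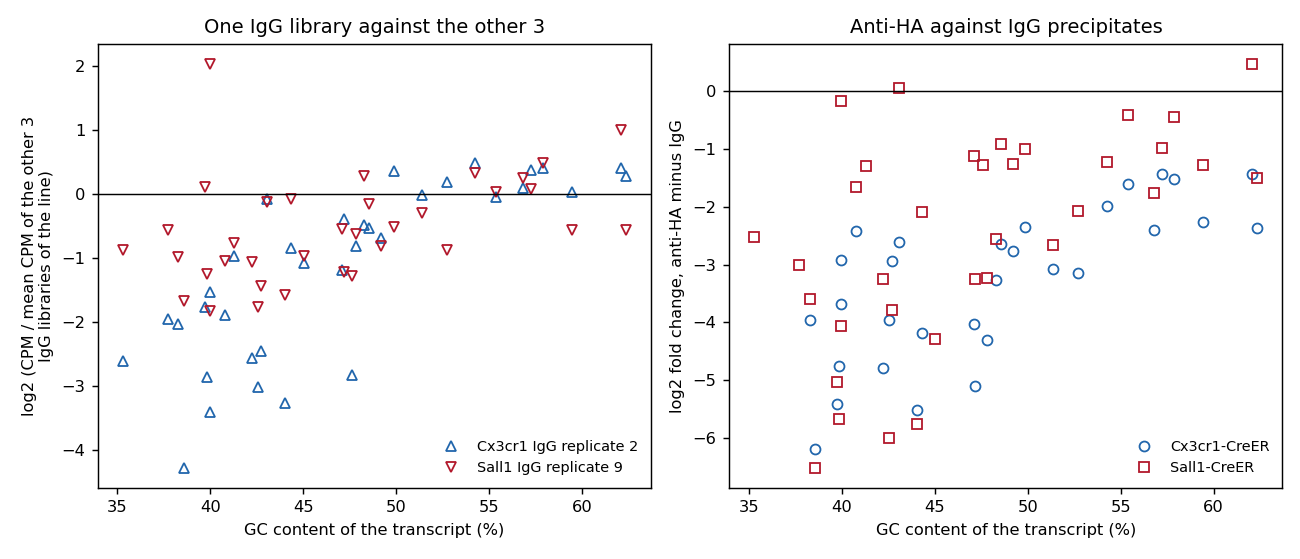
GC content of the transcript (x axis, %) for each receptor subunit, against the log2 ratio of its CPM in 1 IgG library to the mean of the other 3 of its line (left; Cx3cr1 IgG replicate 2 and Sall1 IgG replicate 9) and against its log2 fold change in HA over IgG (right; both lines). On the left the members below 45% GC fall to a median of -2.24 in Cx3cr1 IgG replicate 2, and on the right those below 45% GC have a median of -3.43 in the Sall1 line, compared with -1.27 for the others.

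Within the IgG libraries, levels of different genes were compared per kilobase of the table's transcript length. Grin1 was highest, at 161 ± 27.7 CPM per kilobase over the 8 IgG libraries (SD, n = 8). Grik5, a kainate receptor subunit, followed at 99.5 ± 19.3, Gabrd, the delta subunit of extrasynaptic GABA-A receptors, at 93.1 ± 9.03, and Gria1, an AMPA receptor subunit, at 88.6 ± 16.5 CPM per kilobase. The last 3 did not differ beyond their SD. Of the 50 members, 43 had a count in Cx3cr1 IgG and 45 in Sall1 IgG. Gabrr3, Glra3 and Grm6 had none in any of the 32 libraries, and 9 members stayed under 10 counts in all of them. Low values cannot be read as absence of expression where the table's gene model is short. In 15 members the table's transcript length was under 0.8 of the longest GENCODE M21 transcript, and 7 of these averaged under 2 CPM over the IgG libraries, compared with 5 of the other 35. Grin2a, an NMDA receptor subunit prominent in the adult brain, was among the 7 with a table length of 4499 of 14634 bases and an average of 0.86 CPM. Between the 2 lines' IgG libraries, edgeR's quasi-likelihood test called 0 of 37 members tested, where 1 of 11593 genes was called (0.00863%). At an unadjusted p under 0.05 there were 2 members, and DESeq2 called 0.

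The first question was how much receptor RNA the precipitate of tagged ribosomes held relative to the IgG control of the same line. All members together took 0.453 ± 0.106% of gene counts in Cx3cr1 IgG and 0.0501 ± 0.0113% in Cx3cr1 HA. In the Sall1 line the share was 0.452 ± 0.0839% in IgG and 0.111 ± 0.0103% in HA. The lowest IgG library of each line lay above the highest HA library of that line. In Cx3cr1 HA against IgG, 30 members could be tested, of which 29 were lower and 0 higher at an adjusted p under 0.05, where 36.0% of all genes were called lower and 28.6% higher. The median log2 fold change was -3.01 over these members and -0.28 over all genes. In Sall1 HA against IgG, 31 of 35 members tested were lower and 1 higher, where 36.1% of all genes were called lower and 35.2% higher, with a median of -2.08 over the members and -0.032 over all genes. Members could pass the filter on low counts through IgG counts alone, as those with few counts in HA did. A lower value was then close to fixed. The remaining 20 and 15 members were too low to be tested. In both lines these included Gabre, Gabrg3, Gabrp, Gabrr1 to Gabrr3, Glra3, Glra4, Grik1, Grin2a, Grin2d, Grin3b, Grm6 and Grm8, and in the Cx3cr1 line also Gabrg1, Gabrq, Glra2, Grik2 and Grm3. Neuron markers moved with them, with 12 of 12 lower in Cx3cr1 HA (median -2.32) and 11 of 12 lower and Map2 higher in Sall1 HA (median -1.98). Their part in the receptor result was not tested.

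**Figure D2:**
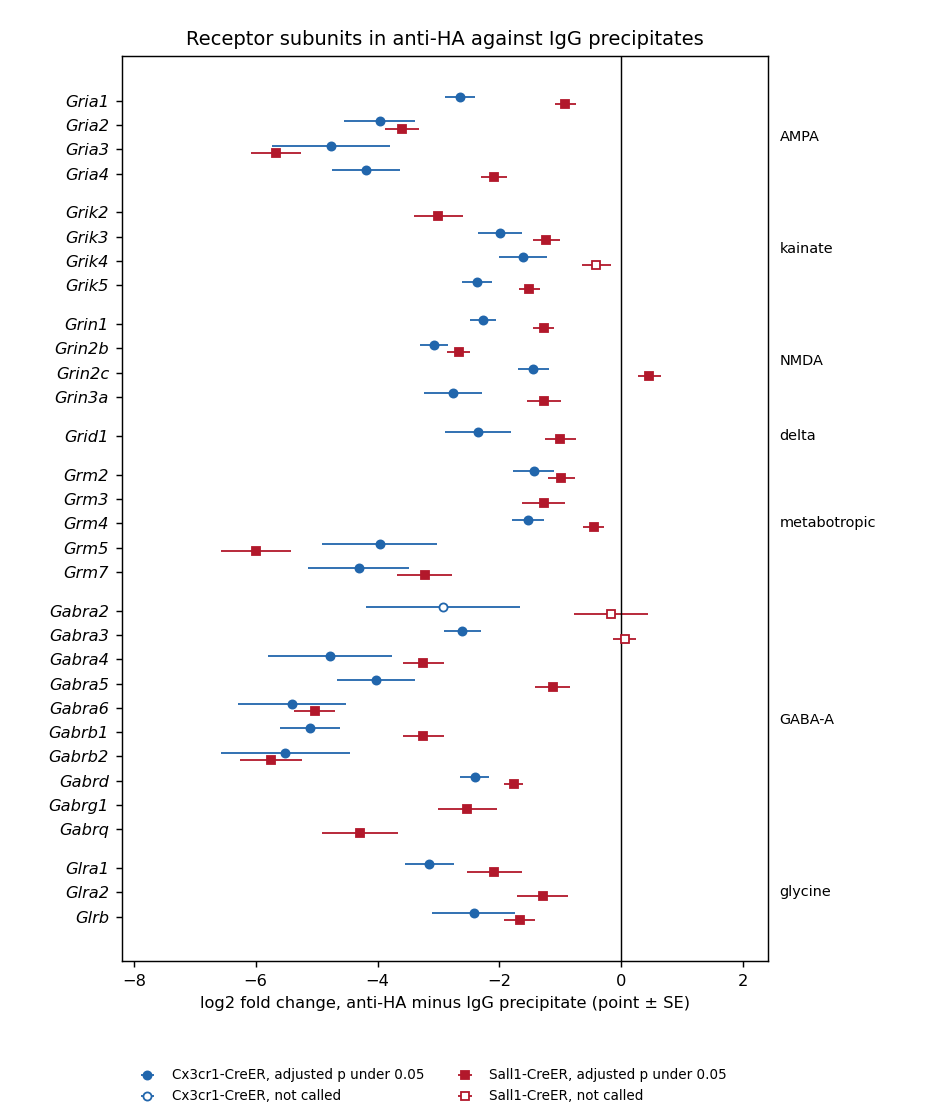
Log2 fold change of tested receptor subunits in HA over IgG (x axis, point ± SE), grouped by receptor family, for the Cx3cr1-CreER line (circles) and the Sall1-CreER line (squares). Filled symbols passed an adjusted p of 0.05. In the Sall1 line Grin2c lies above 0 and Gabra3 at 0.057, while Grm5, at -6.00, and Gabrb2, at -5.75, are far below it; the Cx3cr1 values of Gabra2, Gabra4, Gabra5, Gabra6 and Grm7 rest on 1 to 3 counts in HA.

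All 4 AMPA receptor genes, which encode the channels of most fast excitation, were lower in HA of both lines, but far from equally. Gria1 measured 419, 334, 480 and 544 CPM in Cx3cr1 IgG and 73.1, 52.0, 36.7 and 48.9 CPM in Cx3cr1 HA. In the Sall1 line it measured 531, 623, 598 and 525 CPM in IgG and 286, 152, 225 and 251 CPM in HA. The HA libraries lay below all IgG libraries in both lines, and those of the Sall1 line above all those of the Cx3cr1 line. Gria1 fell by 2.65 ± 0.25 on the log2 scale in Cx3cr1 HA (SE, adjusted p = 1.44e-07) and by 0.92 ± 0.18 in Sall1 HA (adjusted p = 1.5e-04). Gria2, the subunit whose edited form makes the channel impermeable to calcium, measured 363, 323, 479 and 195 CPM in Sall1 IgG and 25.1, 23.1, 21.6 and 14.6 CPM in Sall1 HA. It fell by 3.6 ± 0.27 there and by 3.96 ± 0.58 in Cx3cr1 HA. Gria3 fell by 5.67 ± 0.41 in Sall1 HA, from 118, 123.5, 133 and 52.4 CPM to between 0.528 and 2.31 CPM. Gria4 fell by 2.09 ± 0.21 there. The makeup of the AMPA receptor counts differed between precipitates: Gria1 held 53.6 ± 7.13% of the family's counts, not corrected for length, in Sall1 IgG and 86.6 ± 3.81% in Sall1 HA, and Gria2 held 30.8 ± 6.2% and 8.42 ± 2.96%. The ranges of IgG and HA libraries did not overlap for either gene. Their transcripts differ in base composition, with 48.5% GC in Gria1 and 38.3% in Gria2, and in length, with 5720 and 6823 bases. The fold changes were smaller once libraries were corrected for both GC content and length. In a fit that pairs samples by mouse (replicate block) and corrects each library for transcript GC content and length, the Sall1 HA fold change was -0.86 ± 0.17 for Gria2, -3.60 ± 0.33 for Gria3, -0.81 ± 0.23 for Gria4 and, not called, -0.076 ± 0.16 for Gria1. In Cx3cr1 HA it was -1.95 ± 0.29 for Gria2. Over 15 alternative fits of Sall1 HA against IgG, this fit included, Gria1 lost its call in 2. Its value nearest 0, -0.00039, came from another fit than the one with both corrections.

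Among NMDA receptor genes, which encode the coincidence-detecting channels of synaptic plasticity, Grin2c stood apart from its family. Grin2c encodes a GluN2 subunit known from cerebellar granule cells and astrocytes. It measured 125, 122.9, 105 and 235 CPM in Sall1 IgG and 158, 162, 147 and 150 CPM in Sall1 HA. HA lay above 3 of the 4 IgG libraries and below replicate 9. It was the only member called higher in Sall1 HA, by 0.46 ± 0.19 on the log2 scale (adjusted p = 0.041). This call was lost without TMM scaling (0.037, adjusted p = 0.88), with DESeq2, and when any library other than IgG replicate 9 was left out. Without IgG replicate 9 the value was 0.74 ± 0.16 (adjusted p = 3.67e-04). In the Cx3cr1 line Grin2c measured 137, 150, 84.8 and 117 CPM in IgG and 36.5, 30.6, 27.5 and 41.9 CPM in HA, and fell by 1.44 ± 0.25 (adjusted p = 1.31e-04). All 4 Cx3cr1 HA libraries lay below all Cx3cr1 IgG libraries. Grin1 measured 637, 809, 737 and 492 CPM in Sall1 IgG and 226, 209, 182 and 223 CPM in Sall1 HA, without overlap. It fell by 1.27 ± 0.17 there and by 2.27 ± 0.21 in Cx3cr1 HA. Grin2b is the GluN2 subunit of the forebrain and of early development, and its HA libraries were far below IgG. It measured 236, 201, 274 and 193 CPM in Sall1 IgG and 32.9, 25.1, 26.4 and 22.7 CPM in Sall1 HA. It fell by 2.67 ± 0.19 in Sall1 HA and by 3.08 ± 0.23 in Cx3cr1 HA. Grin3a, a glycine-binding subunit, fell by 1.26 ± 0.28 in Sall1 HA. In Sall1 HA, Grin2c held 37.8 ± 1.89% of NMDA receptor counts, above every Sall1 IgG library (8.84 to 24.6%), whereas Grin2b held 6.55 ± 0.88%, below every one (16.95 to 23.1%).

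**Figure D3:**
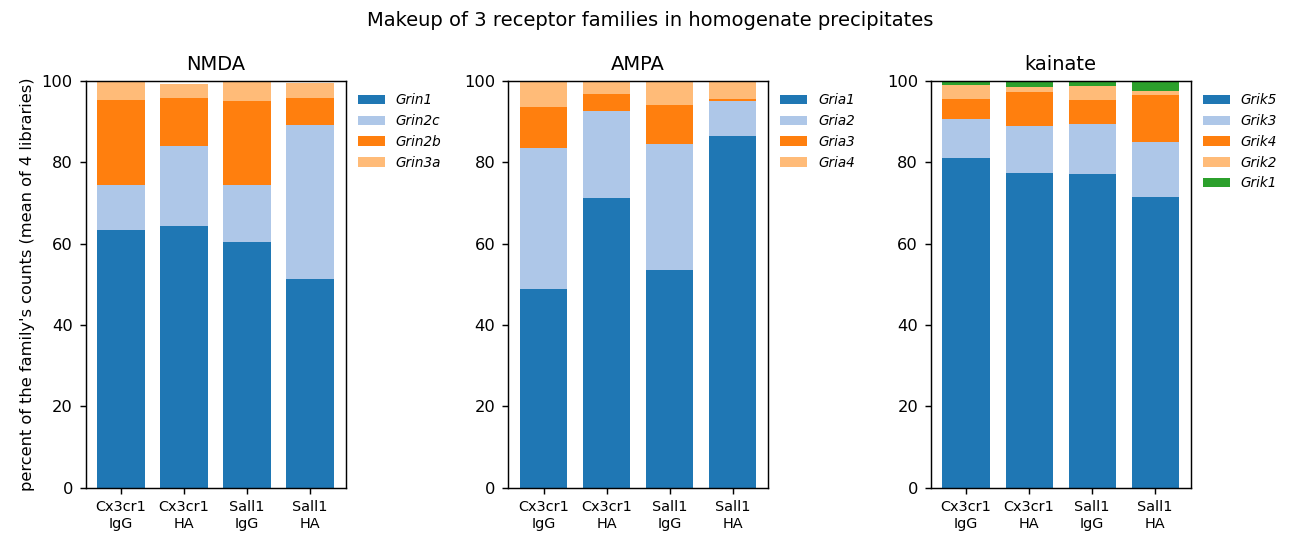
Makeup of NMDA, AMPA and kainate receptor counts in IgG and HA of both lines. Bars give each gene's mean percentage of its family's counts over 4 libraries, for genes at 1% or more in a group; in Sall1 HA Grin2c holds 37.8% of NMDA and Gria1 86.6% of AMPA receptor counts.

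Of the kainate and delta receptor genes tested, all but Grik4 in the Sall1 line were called lower in HA. Grik5 measured 353, 343, 385 and 244 CPM in Sall1 IgG and 87.2, 84.9, 98.7 and 81.8 CPM in Sall1 HA, and fell by 1.51 ± 0.18 there and by 2.36 ± 0.24 in Cx3cr1 HA. It made up most kainate receptor counts in each of the 4 homogenate groups, from 71.4 ± 2.49% in Sall1 HA to 81.1 ± 1.74% in Cx3cr1 IgG. Grik4, its relative of the high-affinity class, measured 24.1, 30.6, 18.5 and 25.0 CPM in Sall1 IgG and 13.98, 11.2, 17.9 and 14.1 CPM in Sall1 HA. The groups did not overlap, but its fold change of -0.41 ± 0.24 did not pass the test (adjusted p = 0.13). Grik3, of the low-affinity class, fell by 1.23 ± 0.22 in Sall1 HA and by 1.99 ± 0.36 in Cx3cr1 HA, and Grik2, of the same class, by 3.00 ± 0.40 in Sall1 HA. With the replicate block and a length correction the Cx3cr1 value of Grik3 was -0.74 ± 0.41 and was not called (adjusted p = 0.11). Grid1, a delta receptor subunit, fell by 1.00 ± 0.25 in Sall1 HA and by 2.35 ± 0.54 in Cx3cr1 HA.

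Metabotropic glutamate receptor genes ranged from -6.00 to -0.45 in Sall1 HA, and all 6 tested were called lower. Grm4, a presynaptic receptor of cerebellar parallel fibres, measured 143, 126, 116 and 179 CPM in Sall1 IgG and 93.0, 68.7, 62.3 and 90.4 CPM in Sall1 HA. It fell by 0.45 ± 0.17 there (adjusted p = 0.026) and by 1.53 ± 0.26 in Cx3cr1 HA. Without Sall1 IgG replicate 9 or 17, or Sall1 HA replicate 7 or 21, the Sall1 call was lost, as it was with the replicate block and a length correction (-0.0094 ± 0.17, adjusted p = 0.97). Grm5, a postsynaptic receptor coupled to Gq, measured 83.6, 101, 118 and 29.4 CPM in Sall1 IgG and 0.411, 1.65, 0 and 1.29 CPM in Sall1 HA. It fell by 6.00 ± 0.58 (adjusted p = 3.35e-07). In the Cx3cr1 line it fell by 3.96 ± 0.94, and by 4.27 ± 0.44 without IgG replicate 2. Grm3, which astrocytes are known to express, fell by 1.28 ± 0.35 in Sall1 HA and was too low to be tested in Cx3cr1 HA, where 1 count in 4 libraries amounted to 2.52% of the IgG level (95% interval 0.064 to 14.2%, exact binomial, counting error only). Grm2, a presynaptic Gi-coupled receptor, fell by 0.98 ± 0.22 in Sall1 HA and by 1.44 ± 0.34 in Cx3cr1 HA, and Grm7, another presynaptic receptor, by 3.23 ± 0.45 in Sall1 HA. Grm4 held 32.6 ± 7.55% of the family's counts in Sall1 IgG and 64.7 ± 4.86% in Sall1 HA, and Grm5 held 18.8 ± 8.34% and 0.68 ± 0.65%.

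GABA-A receptor genes lie in clusters, and members of 1 cluster did not always share a fold change. Gabra6 and Gabrb2, neighbours on chromosome 11, were far lower in HA of both lines. Gabrb2 measured 187, 121, 237 and 60.8 CPM in Sall1 IgG and 3.29, 2.31, 1.58 and 0.857 CPM in Sall1 HA. Every HA library was below every IgG library. The log2 fold change in Sall1 HA was -5.03 ± 0.34 for Gabra6, the cerebellar granule cell subunit, and -5.75 ± 0.50 for Gabrb2. In Cx3cr1 HA it was -5.51 ± 1.06 for Gabrb2, and without the deviating IgG replicate 2 the error was smaller, at -5.82 ± 0.42. Gabra6 was also called lower in Cx3cr1 HA, where 1 count amounted to 1.63% of the IgG level (95% interval 0.041 to 9.13%).

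The X chromosome cluster (mm9 chrX:69502771-70087941) holds Gabre, Gabra3 and Gabrq. Gabra3, an alpha subunit of brainstem and early forebrain receptors, measured 61.9, 59.5, 41.2 and 49.7 CPM in Sall1 IgG and 42.4, 40.3, 40.6 and 46.3 CPM in Sall1 HA. These groups overlapped, and the fold change of 0.057 ± 0.19 did not pass the test (adjusted p = 0.79). It was -0.35 without TMM scaling, which moved the median of all genes from -0.032 to -0.44. In the Cx3cr1 line Gabra3 measured 61.3, 67.2, 73.6 and 79.4 CPM in IgG and 6.96, 9.18, 9.18 and 10.5 CPM in HA, and fell by 2.61 ± 0.31 (adjusted p = 2.21e-06). Its neighbour Gabrq, the theta subunit, was called lower in Sall1 HA, where 3 counts amounted to 3.73% of the IgG level (95% interval 0.752 to 11.3%). Gabrq had no count in Cx3cr1 HA, which put it at least 5.41-fold below IgG, taking 3 counts over the 4 libraries as the floor.

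In the chromosome 5 cluster (mm9 chr5:71142286-72528483), Gabra4 and Gabrb1 fell by 3.25 ± 0.34 each in Sall1 HA, and Gabrg1 had a fold change of -2.53 ± 0.48 (adjusted p = 1.38e-04). Gabra2, between them, did not pass the test in Sall1 HA, with -0.17 ± 0.60 (adjusted p = 0.81). In Cx3cr1 HA its 3 counts amounted to 9.61% of the IgG level (95% interval 1.96 to 28.5%). That difference missed the threshold (adjusted p = 0.063) but was called lower in 6 of 11 alternative fits, among them the one with the replicate block alone (adjusted p = 9.3e-04). Its IgG values were uneven, with 1 library of each line far above the other 3, at 10.9, 7.69, 8.52 and 49.9 CPM in the Cx3cr1 line and 5.35, 6.23, 4.26 and 23.0 CPM in the Sall1 line. Gabra5, on chromosome 7, the alpha subunit of hippocampal extrasynaptic receptors, fell by 1.12 ± 0.29 in Sall1 HA. Gabrd, on chromosome 4, measured 169, 184, 168 and 205 CPM in Sall1 IgG and 40.7, 42.3, 36.9 and 40.7 CPM in Sall1 HA, and fell by 1.77 ± 0.15 there and by 2.4 ± 0.24 in Cx3cr1 HA.

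To show the genes at both ends of the Sall1 HA order with their start regions, the promoter sequences of Grin2c and Gabra3 (highest) and of Gabra6 and Gabrb2 (among the lowest) are given from RefSeq (GRCm38.p6), from 250 bases before to 50 after the first listed start. They lie at chr11:115267194-115267493 (minus strand), chrX:72656870-72657169 (minus), chr11:42321023-42321322 (minus) and chr11:42420190-42420489 (plus). Capitals mark matches, on either strand, to the GC box GGGCGG, the TATA box TATAAA and TTCAGCACC, a part of the element bound by the neuronal gene repressor REST. Matches to different motifs did not overlap, but 2 of the GC box matches of Grin2c did.
Grin2c: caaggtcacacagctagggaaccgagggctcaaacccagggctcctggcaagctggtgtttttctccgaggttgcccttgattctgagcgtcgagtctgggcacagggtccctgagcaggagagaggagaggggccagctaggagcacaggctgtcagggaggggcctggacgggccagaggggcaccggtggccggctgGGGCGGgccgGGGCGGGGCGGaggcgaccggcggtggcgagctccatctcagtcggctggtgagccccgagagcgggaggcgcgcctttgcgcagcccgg
Gabra3: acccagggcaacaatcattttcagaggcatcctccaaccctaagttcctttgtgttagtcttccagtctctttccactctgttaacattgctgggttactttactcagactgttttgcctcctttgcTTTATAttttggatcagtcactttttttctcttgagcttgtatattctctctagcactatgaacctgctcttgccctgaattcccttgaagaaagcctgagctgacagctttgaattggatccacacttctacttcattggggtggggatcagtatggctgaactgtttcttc
Gabra6: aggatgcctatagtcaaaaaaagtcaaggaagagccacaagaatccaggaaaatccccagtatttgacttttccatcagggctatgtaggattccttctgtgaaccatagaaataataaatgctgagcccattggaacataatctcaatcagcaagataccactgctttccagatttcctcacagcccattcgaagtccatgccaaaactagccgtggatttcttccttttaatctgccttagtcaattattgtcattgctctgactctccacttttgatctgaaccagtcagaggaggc
Gabrb2: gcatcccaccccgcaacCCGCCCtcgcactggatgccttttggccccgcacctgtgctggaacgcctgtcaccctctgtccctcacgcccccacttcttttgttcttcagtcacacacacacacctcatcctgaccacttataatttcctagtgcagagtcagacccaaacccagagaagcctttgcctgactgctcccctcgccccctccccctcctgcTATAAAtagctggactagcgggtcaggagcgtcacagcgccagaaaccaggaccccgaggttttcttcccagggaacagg
The first holds 3 matches to the GC box and 70.0% GC, the second 1 to the TATA box and 43.0% GC, the third none of the motifs and 42.0% GC, and the fourth 1 to each of the GC and TATA boxes and 59.0% GC. Of 32851 promoters in the reference, 35.7% hold the GC box, 13.6% the TATA box and 0.371% the REST sequence, compared with 19, 4 and 1 of the 34 members with an entry. These matches describe letters only, and no binding was measured.

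Glycine receptor subunits, which carry inhibition in brainstem and spinal cord, were lower as well. Glra1, the adult alpha subunit, fell by 2.08 ± 0.46 in Sall1 HA and by 3.15 ± 0.40 in Cx3cr1 HA, from 52.7, 72.9, 61.9 and 77.3 CPM in Cx3cr1 IgG to 5.22, 12.2, 2.29 and 3.49 CPM. Glrb, the beta subunit that anchors the receptor to gephyrin, measured 129, 116, 153 and 64.2 CPM in Sall1 IgG and 29.6, 30.4, 17.9 and 30.0 CPM in Sall1 HA, and fell by 1.67 ± 0.26. In the Cx3cr1 line it fell by 2.42 ± 0.68, although HA replicate 2, at 42.8 CPM, exceeded IgG replicate 2, at 41.3 CPM. With the replicate block that value was -2.28 ± 0.84 and was not called (adjusted p = 0.056), nor was it with the block and a length correction (adjusted p = 0.074). Glra2, the alpha subunit of the immature receptor, fell by 1.29 ± 0.42 in Sall1 HA.

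**Figure D4:**
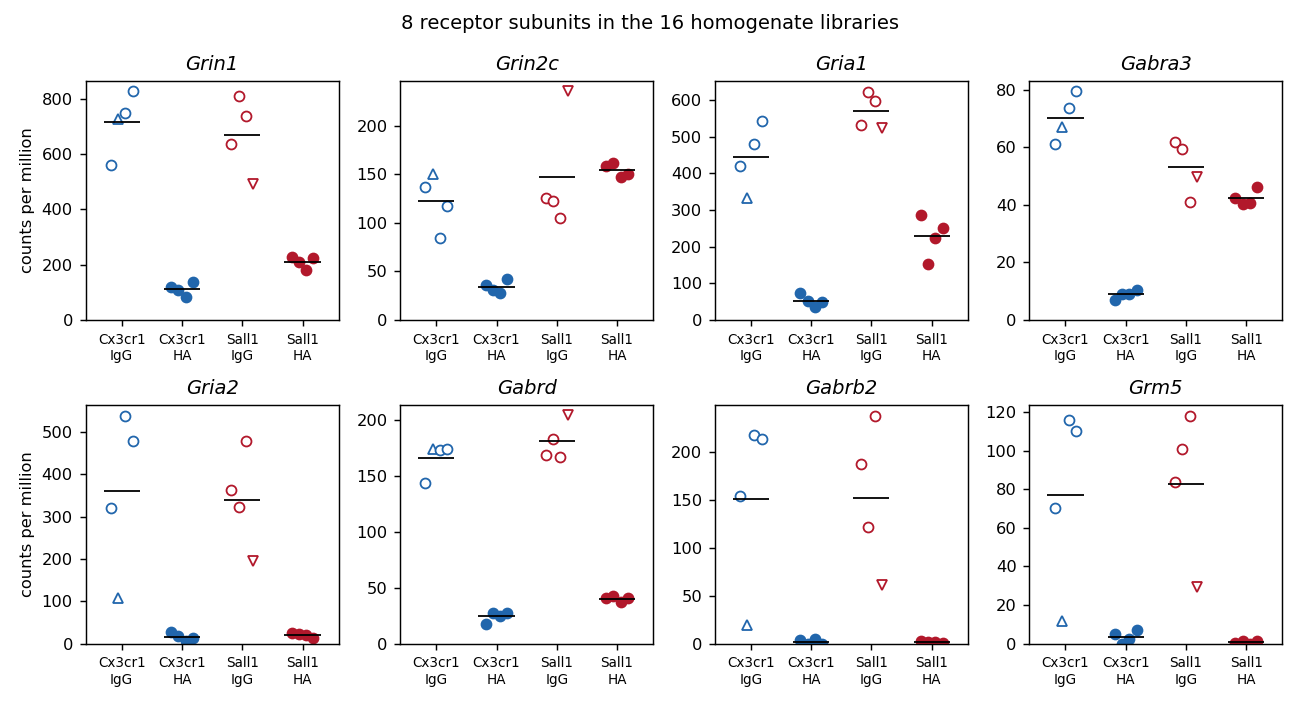
CPM of 8 subunits in each of the 16 homogenate libraries (open symbols IgG, filled symbols HA, lines group means). The upward triangle is Cx3cr1 IgG replicate 2 and the downward triangle Sall1 IgG replicate 9: both are the lowest of their group for Gria2, Gabrb2 and Grm5, while Sall1 IgG replicate 9 is the highest for Grin2c.

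In HA against IgG, the fold changes of the members followed transcript GC content too. Over the 30 members tested in the Cx3cr1 line, log2 fold change in HA over IgG and GC content had a Spearman rho of 0.74, compared with 0.16 over 9827 genes. Over the 35 members of the Sall1 line rho was 0.57, and 0.27 over 11317 genes. Against the same IgG libraries, rho was -0.63 over 30 members in the libraries titled Cx3cr1 Sort and -0.22 over 10959 genes. In Sall1 Sort it was 0.0085 over 31 members and -0.24 over 11065 genes. With the replicate block and the GC and length corrections, the values over members were -0.11 and 0.47. Most members had few counts in the sorted libraries, and the part of the IgG level in these fold changes was not tested. Genes within a comparison share their libraries, so these are descriptions. Members below 45% GC had a median of -3.43 in Sall1 HA and the others -1.27. In the fit with the replicate block and the GC and length corrections, added after the data had been seen, these medians were -1.37 and -1.03 and rho was 0.13. In that fit 6421 of 10021 genes were called in either direction in Cx3cr1 HA, and 7651 of 11545 in Sall1 HA. The medians over all genes were -0.21 and -0.0057. Of the members, 30 of 30 were lower in Cx3cr1 HA (median -2.11), and 25 of 35 were lower and 2 higher in Sall1 HA (median -1.03). The 2 were Grin2c (0.93 ± 0.17, adjusted p = 1.78e-05) and Gabra3 (1.15 ± 0.20, adjusted p = 8.14e-06). Gria1, at -0.076 ± 0.16, Grik3, at -0.21 ± 0.22, Grin3a, at -0.091 ± 0.23, and Glrb, at -0.37 ± 0.19, no longer passed the test. Also Glra2, Gabrg1 and Grik2 were no longer called, whereas Grik4 was (-0.63 ± 0.24). With the block and a correction for length alone, Grik3 (0.45 ± 0.23) and Grin3a (0.15 ± 0.24) were above 0 and not called. With both corrections, fold changes stayed far below 0 for Gabrb2 (-3.88 ± 0.27) and Grm5 (-3.75 ± 0.41), but shrank from -3.60 to -0.86 for Gria2, from -2.09 to -0.81 for Gria4 and from -2.67 to -1.75 for Grin2b, all 3 still called. With the block and the length correction alone Grin2b was at -1.28 ± 0.18.

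A further comparison asked whether the enrichment in HA over IgG differed between the lines, as an interaction over the 16 homogenate libraries. Of 37 members tested, 8 had a higher HA-over-IgG ratio in the Sall1 line and 0 a lower one, where 18.5% of all genes were called higher and 13.7% lower. The number of members higher was thus near the share over all genes. The median difference was 1.03 over the members and 0.15 over all genes. The 8 were the AMPA subunits Gria1 (1.68 ± 0.31, adjusted p = 1.5e-04) and Gria4 (2.06 ± 0.65), the NMDA subunits Grin1 (0.95 ± 0.27) and Grin2c (1.88 ± 0.33, adjusted p = 9.02e-05), Grik5 (0.81 ± 0.31), Grm4 (1.03 ± 0.32), and the GABA-A subunits Gabra3 (2.63 ± 0.35, adjusted p = 2.02e-06) and Gabra5 (2.85 ± 0.80). In Cx3cr1 HA, Gabra5 rested on 3 counts, 4.56% of the IgG level (95% interval 0.936 to 13.4%), and Gria4 measured 3.48, 3.06, 0 and 3.49 CPM. All but Gria4 and Grik5 were called in each of 23 alternative fits, among them all 16 that left out 1 library. Gria4 was lost only without Cx3cr1 HA replicate 3 and Grik5 in 11 of the 23. Grm3, which had 1 count in Cx3cr1 HA, missed the threshold (adjusted p = 0.084) but was called higher with the replicate block (adjusted p = 0.006). Gabrb2, at -0.30 ± 1.95, and Gria2, at 0.30 ± 0.74, did not pass the test, and their errors were too wide to show a small difference. Of the 12 neuron markers, Gad1 (2.37 ± 0.30), which makes GABA, and Map2 (1.64 ± 0.29), a dendritic microtubule protein, were higher in this comparison and 0 lower, with a median of 0.43. All 12 astrocyte markers were higher, with a median of 3.44. The part of these cell types in the receptor differences was not tested.

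Set against each other directly, Sall1 HA was higher than Cx3cr1 HA in 8 of 20 members tested and lower in 0, where 27.2% of all genes were called higher and 25.7% lower. These were Gabra3 (2.09 ± 0.32), Gabrb1 (2.02 ± 0.63), Grin2c (1.99 ± 0.21), Gria4 (1.94 ± 0.58), Gria1 (1.89 ± 0.23), Grin3a (1.28 ± 0.51), Grm4 (0.96 ± 0.24) and Grin1 (0.71 ± 0.18). The 2 groups share no mouse, but this comparison and the interaction share the HA libraries. Members could pass the filter on low counts through Sall1 HA counts alone, and a higher value was then close to fixed. Of those called, Gabrb1 measured 3.48, 6.12, 0 and 0 CPM in Cx3cr1 HA. Gria4 measured 3.48, 3.06, 0 and 3.49 CPM there, and Grin3a 5.22, 12.2, 4.59 and 0 CPM. The other 30 members were too low for a test. In Cx3cr1 HA 17 members had a count in all 4 libraries, compared with 33 in Sall1 HA. The count was 14 of 43 tested without the filter on low counts, and 5 of 11 tested when any 1 of the Sall1 HA libraries was left out. The call of Grin3a was lost without Cx3cr1 HA replicate 1, 3 or 4 (adjusted p of 0.10, 0.084 and 0.10).

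The wider transmitter system was described by lists of related genes. Over all genes tested against IgG, 35.2% were called higher and 36.1% lower in Sall1 HA, and 28.6% and 36.0% in Cx3cr1 HA. Of 10 tested genes for transmitter uptake and glutamine synthesis, 7 were higher and 2 lower in Sall1 HA (median 1.78), and 0 higher and 7 lower in Cx3cr1 HA (median -1.19). In Sall1 HA the GABA transporter gene Slc6a13 rose by 2.88 ± 0.22, the glial glutamate transporter gene Slc1a2 by 1.72 ± 0.15 and the glycine transporter gene Slc6a9 by 2.5 ± 0.18, whereas Slc1a2 fell by 1.62 ± 0.20 in Cx3cr1 HA. Postsynaptic scaffold genes were lower in most cases, 17 of 18 in Cx3cr1 HA (median -1.92) and 16 of 21 in Sall1 HA (median -1.495), with 1 called higher in each. Shank3 fell by 5.46 ± 0.34 there, while Gphn, which encodes the scaffold gephyrin, measured 0.046 ± 0.17 (adjusted p = 0.82). Of genes for transmitter synthesis and vesicular loading, 7 of 7 were lower in Cx3cr1 HA, and 6 lower and 1 higher in Sall1 HA. Slc17a7, the vesicular glutamate transporter gene, which is also among the neuron markers, fell by 2.37 ± 0.18 there, and the exception was Slc32a1, the vesicular transporter of GABA and glycine (1.33 ± 0.15). Auxiliary subunits of ionotropic glutamate receptors were lower in 9 of 11 tested in Sall1 HA (median -1.19). Cacng2, which encodes the AMPA receptor partner stargazin, fell by 2.48 ± 0.22, and Cacng5 of the same family rose by 1.82 ± 0.20. The GABA-B receptor genes went apart in Sall1 HA, where Gabbr1 rose by 0.56 ± 0.17 and Gabbr2 fell by 2.45 ± 0.43. Of 3 genes for serine racemase and glycine cleavage tested in Sall1 HA, Gcsh rose by 0.82 ± 0.17 and Srr fell by 1.20 ± 0.26. The uptake list shares Slc1a3 with the astrocyte markers, whose level moved with it, and their part in its count was not tested.

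In sorted microglia receptor counts were lower still. All members together took 0.0103 ± 0.0018% of gene counts in libraries titled Cx3cr1 Sort, 0.0061 ± 0.0027% in those titled Cx3cr1 SortIP, 0.0049 ± 0.0039% in Sall1 Sort and 0.0137 ± 0.0034% in Sall1 SortIP. Against IgG, 30 of 30 members tested were lower in the libraries titled Cx3cr1 Sort (median -5.39), where 40.1% of all genes were called lower and 33.7% higher, and 31 of 31 in Sall1 Sort (median -6.59), where 41.1% were lower and 37.1% higher. Grouped by description, 32 of 32 members were lower in the Cx3cr1 line (median -6.31, compared with -0.22 over all genes). Most of the members tested passed the filter on low counts through their IgG counts alone. Their direction was therefore largely fixed by the filter, and the counts of members lower add little to it. Gria2 measured 4.42, 4.06, 7.55 and 19.2 CPM in the libraries titled Cx3cr1 Sort and 1.19, 5.36, 8.29 and 18.8 CPM in those titled SortIP. Grik5 measured 4.82, 14.7, 10.5 and 6.15 CPM in Sall1 Sort and 8.16, 0, 13.3 and 7.93 CPM in Sall1 SortIP. Grin1 measured 7.73, 4.06, 5.67 and 7.38 CPM in the libraries titled Cx3cr1 Sort and 1.38, 5.87, 1.31 and 2.31 CPM in Sall1 Sort. Its log2 fold change against IgG was -6.80 ± 0.27 and -7.95 ± 0.33, and that of Gabrd -5.69 ± 0.28 and -5.58 ± 0.29. Without a count in Sall1 Sort, Gabrb2 was at least 189-fold lower than in IgG, with the same floor. Of the 50 members, 18 had no count in Sall1 Sort and 16 in the libraries titled Cx3cr1 Sort.

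**Figure D5:**
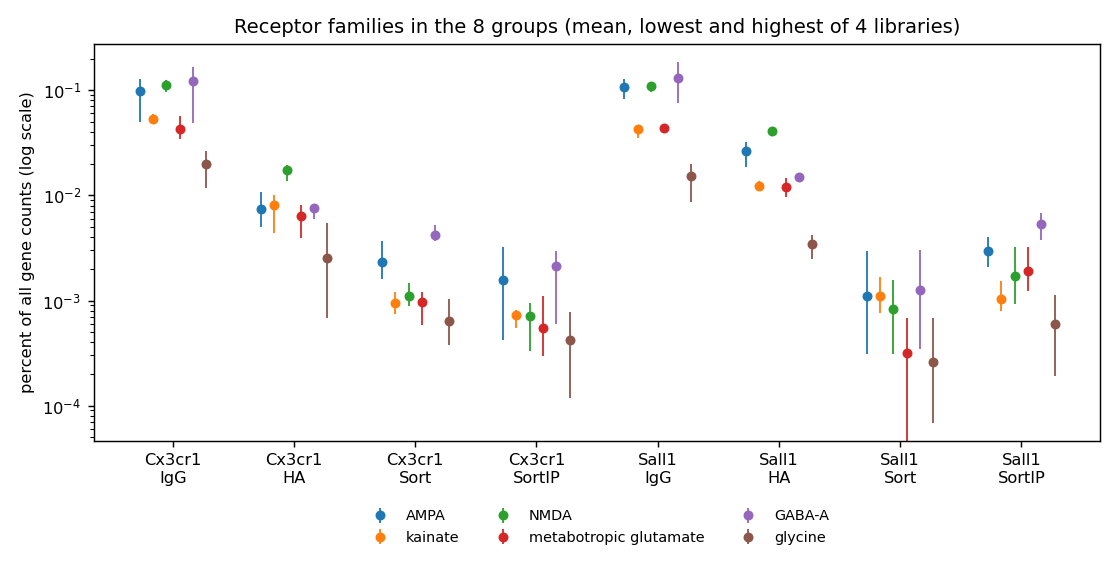
Share of all gene counts (y axis, %, log scale) taken by 6 receptor families in each of the 8 groups. Points are means of 4 libraries and bars run from the lowest to the highest library (a bar to the lower edge reaches 0). All families are highest in IgG, and the summed share of all members falls from 0.452% in Sall1 IgG to 0.0049% in Sall1 Sort.

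Precipitation of sorted Sall1 microglia left only 2 members testable against Sort. By edgeR 1 of the 2 was called higher, where 5.45% of all genes were called higher and 5.08% lower, and by DESeq2 0. The other, Gria2, measured 2.75, 10.8, 3.94 and 0 CPM in Sort and 16.3, 20.01, 5.7 and 13.6 CPM in SortIP. The groups overlapped, and 1.85 ± 0.61 did not pass the test (adjusted p = 0.056), but with the replicate block, or without Sort replicate 21, 2 members were called. The 12 neuron markers summed to 55.2 to 219 CPM in Sall1 Sort and to 211 to 348 CPM in Sall1 SortIP, and their part in this difference was not tested.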

How the data were processed

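Polyadenylated RNA was profiled in 32 libraries, 4 in each of 8 groups. Values are whole-number exon read counts of 24411 genes, which the authors deposited without normalization. The submitters' processing notes name bcl2fastq, HISAT 0.1.5, HOMER and mm9. The strand setting and the treatment of multiply mapped reads are not given in the sources used here, so genes with near-identical copies and overlapping genes are uncertain. Gene counts per library ranged from 249881 to 4047465. The sources used here name no molecular identifiers, so intervals and floors of 3 counts cover counting error only.

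Groups follow the titles. Each comparison was fitted on the libraries of its groups with edgeR 4.0.16 (R 4.3.3): TMM scaling, default filter (minimum count 10), robust quasi-likelihood test, Benjamini-Hochberg adjustment over all genes tested, threshold 0.05. Every fold change with an SE and every adjusted p in the text comes from this test unless another fit is named. The test was checked on simulated counts. In Cx3cr1 HA against IgG (10200 genes), 53% of changes by 1 on the log2 scale and 100% of those by 2 were recovered. In Sall1 HA against IgG (11601 genes) these were 63% and 100%. Changes were set only in genes with enough counts expected in the smallest library. All genes had the same dispersion, and no library deviated with GC content. The rates therefore do not apply to members with few counts. Transcript GC content was taken from the GENCODE M21 transcript of the same symbol closest in length, and 98.1% of 10021 genes tested in Cx3cr1 HA against IgG had one.

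Alternatives were DESeq2 1.42.0, median-ratio size factors, no TMM scaling, no low-count filter, each library left out, groups by description, and a replicate block alone, with a length correction, or with GC and length corrections (lowess, span 0.3). Same-numbered libraries of a line came from 1 mouse, per the series' design. The deviations of 48 such pairs correlated with a median r of 0.12 over 2549 genes (-0.17 to 0.35), and those of 144 pairs of different mice with -0.02. Replicates differed by more than sampling noise in each of 48 within-group pairs (chi-square over its degrees of freedom, 1.58 to 22.5). Since each mouse gave 1 library per preparation, p-values measure the spread between libraries of different mice. Differences between mice and between preparations cannot be told apart in it. Fits without the replicate block did not pair the samples of a mouse.

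Some members are counted in totals and not reported by name here. The members and lists were chosen with earlier results of these data known. Genes named in the text are the highest of each family per kilobase in IgG or HA, per comparison the 4 called higher and 4 called lower of smallest adjusted p and the 2 highest not called, the 4 highest members of each sorted group, members higher in Sall1 HA, per list the 2 genes of smallest adjusted p in each homogenate comparison, and further members to complete a family. The GC limit, the promoters shown, Slc32a1 in Sall1 HA against IgG, and the other members of the GABA-A clusters were picked after values were seen.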

Additional observations from a re-analysis of the deposited data

Results flagged for a closer look

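In groups of 4 libraries, a library was singled out when its gap to the nearest other exceeded Dixon's 95% critical value, as a share of the group's range. Of 75 groups tested over 18 members, 7 were singled out, and chance gives about 1 in 20 groups. Both deviating IgG libraries are among them. In Cx3cr1 IgG, replicate 2 was low for Gabra5 (20.6 CPM, next 46.0) and Gabra6 (13.4 CPM, next 45.9), replicate 4 was high for Gabra2 (49.9 CPM, next 10.9) and replicate 1 was low for Gabrd (144 CPM, next 174). In Sall1 IgG, replicate 9 was high for Gabra2 (23.0 CPM, next 6.23) and for Grin2c (235 CPM, next 125). In Sall1 HA, replicate 7 was low for Glrb (17.9 CPM, next 29.6).

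The ratio of HA to IgG differed between the lines, by the interaction test, in 8 of 37 members tested. All 8 had a higher ratio in the Sall1 line, where 18.5% of all genes were called higher and 13.7% lower, so that their number was near the share over all genes. The differences on the log2 scale were 2.85 for Gabra5, 2.63 for Gabra3, 2.06 for Gria4, 1.88 for Grin2c, 1.68 for Gria1, 1.03 for Grm4, 0.95 for Grin1 and 0.81 for Grik5.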

How the results depend on the processing

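The default filter on low counts left 20 of the 50 members untested in Cx3cr1 HA against IgG and 15 in Sall1 HA against IgG. Over 163 tested values of single members there were 2671 recomputed values: 2563 kept direction and side of the threshold, 46 newly passed it, 39 lost it and 23 changed sign. With 1 library left out, the number of members called lower in Cx3cr1 HA against IgG ranged from 24 (of 24 tested) to 35 (of 37 tested). In Sall1 HA against IgG it ranged from 30 (of 35 tested) to 32 (of 37 tested). Members called higher in Sall1 HA against IgG, 1 in the report, were 0 without TMM scaling and with DESeq2, 2 with the replicate block and GC and length corrections (chosen after seeing the data), and 0 to 1 with a library left out. Those in Sall1 HA against Cx3cr1 HA, 8 in the report, were 14 of 43 tested without the low-count filter and 5 to 11 with a library left out (5 of 11 tested without any 1 Sall1 HA library, against 20 tested in the report). Those in Sall1 SortIP against Sort were 0 with DESeq2, 4 without the filter, 2 with the replicate block, alone or with either correction, and 1 to 2 with a library left out (2 without Sort replicate 21). The replicate block alone changed no other count by over 1.5 times.

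With a library left out, values that changed sign ran between these limits, none of them called where the sign had changed, and the cause was not tested. In Sall1 HA against IgG, Gabra2 ran from -0.71 to 0.75 and Gabra3 from -0.037 to 0.14. In the difference between lines, Gabra6 ran from -0.20 to 4.08, Gabrb2 from -0.61 to 0.24, Glra2 from -0.55 to 1.15 and Grik2 from -0.64 to 4.98, the extremes mostly without 1 library of Cx3cr1 HA. Between the HA groups, Gria2 ran from -0.18 to 0.58 and Grm2 from -0.061 to 0.45, and between the IgG groups Grin1 from -0.21 to 0.034. In other settings, Gabra3 was -0.35 in Sall1 HA without TMM scaling, and Gabra2 was 1.04 and Gabrg1 0.023 there with the block and both corrections. Grik3 was 0.45 and Grin3a 0.15 with the block and length correction. DESeq2 gave -0.029 for Gabra6 and -0.67 for Gabrq in the difference between lines.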
